A study of Mus musculus with 12 samples.

Results

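Dorsal root ganglia of female mouse pups raised on limited bedding were compared with those of female pups raised on control bedding. The members are the 6 libraries of 12 in the series whose labels say female, 3 labelled stress and 3 labelled control, and all genes of the deposited table. All 6 came from wild-type (WT) pups, taken at postnatal day 9. Dam and litter had been kept on limited bedding, a protocol that stresses mother and pups, or on control bedding from postnatal day 2 to postnatal day 9. Total RNA was taken from the lumbar L3, L4 and L5 ganglia, and libraries keep the strand. Litters, and any pooling of ganglia from several pups, are not stated in the labels. The p-values therefore reflect only how far these 6 samples spread, which may be technical variation.

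Dorsal root ganglia hold the cell bodies of the neurons that carry touch, limb position, temperature, pain and itch to the spinal cord. Small unmyelinated neurons, peptidergic or non-peptidergic, respond to heat, irritants and itch mediators, and large myelinated A-fibre neurons carry touch and limb position. Each cell body is wrapped by satellite glia, and axons by Schwann cells, and fibroblasts, vessels and macrophages fill the space between them. In the days after birth these neurons still extend axons and settle into their subtypes.

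Values are normalized counts, that is counts scaled by the authors between libraries so that they can be compared for 1 gene across libraries, but not between genes. Estimated depth was 16500000 to 21000000 reads in the control libraries and 17300000 and 23800000 in stress replicates 1 and 3, and could not be estimated for stress replicate 2. The ganglion markers were high and alike in all 6 libraries: Avil, an actin-binding protein of sensory neurons, lay between 20734 and 21713 normalized counts, and the sensory neuron factor Isl1 between 1907 and 2210. Prph (peripherin) and the sodium channel Scn10a were present in every library, with lowest values of 50788 and 17019. Xist, made from the silenced X chromosome of females, was at 1101 to 1726, and the Y-linked Ddx3y at 1.77 or less. Of 16 genes of central glia and motor neurons, 10 were not in the table and none of the others was called. Markers of skeletal muscle varied within both groups: their sum was 1729, 537 and 4019 in the 3 controls and 982, 2024 and 4093 in the 3 stress libraries, and none of 21 was called. Stress replicate 1 stood apart from the other stress libraries for interferon-stimulated and red blood cell genes, whose values are given by library.

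Many genes differed by small amounts between the stress and control libraries. Of 14844 genes tested, 1782 (12%) passed a limma adjusted p of 0.05 and are called here, 765 of them higher (5.15%) and 1017 lower (6.85%) in stress. These shares are the background for the counts of list members below, where the percentage called is to be set against 12%. Among the called genes 356 differed by more than 1.5-fold, 203 higher and 153 lower, and 116 by more than 2-fold. The 2 groups of 3 did not overlap for 1760 of the 1782 called genes and for 31.1% of all genes tested. Nearly all called genes have such a gap, so it adds no support to a call. The median log2 fold change of all genes tested was 0.00519. With upper quartile scaling the split became 914 higher and 858 lower, and with 1 prior variance for all genes, in place of one that follows expression, 462 genes were called. Without control replicate 1, control replicate 2 or stress replicate 1 the count was 778, 792 and 970.

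**Figure D1:**
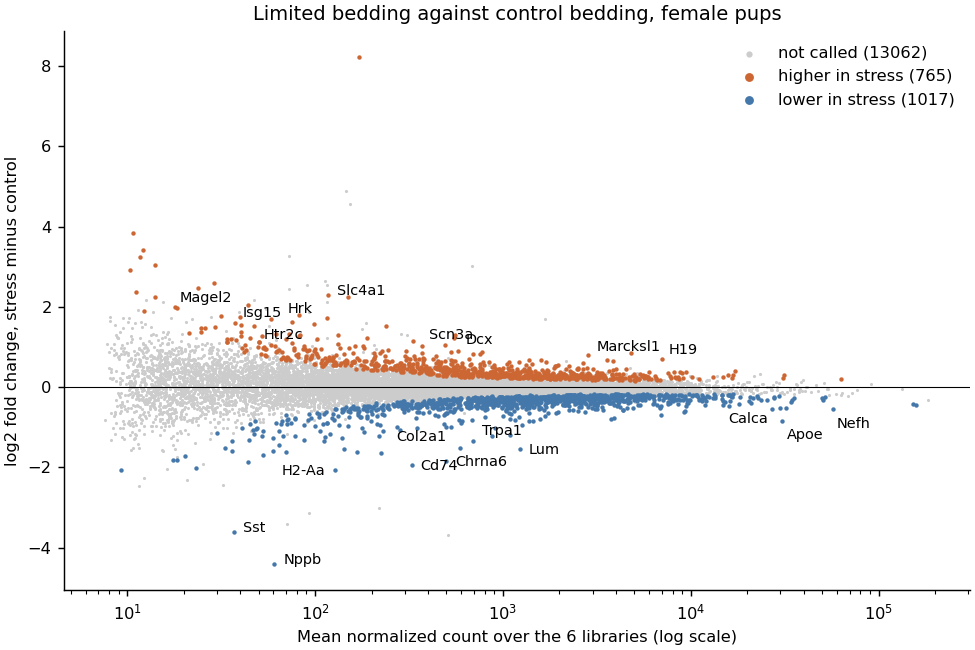
Log2 fold change of stress over control (vertical axis, log2(value + 1) scale) against the mean normalized count over the 6 libraries (horizontal log axis), 1 point per gene. The 765 genes called higher are orange, the 1017 called lower are blue and the others grey. Nppb and Sst lie lowest among the labelled genes, and most called genes lie close to the 0 line.

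Both itch peptides of the ganglion were near 0 in the stress libraries. Nppb encodes natriuretic polypeptide b, the transmitter by which a small class of itch neurons (called NP3) signals to the spinal cord, and Sst encodes somatostatin, made in the same cells. Nppb was at 116, 101 and 132 normalized counts in the 3 control libraries and at 2.42, 5.25 and 6.56 in the 3 stress libraries. The lowest control was far above the highest stress library, and the log2 fold change was -4.42 ± 0.37 (SE, limma adjusted p = 2.89e-05, n = 3 each). Sst was at 68.9, 50.7 and 87.1 in control and at 3.62, 8.48 and 2.89 in stress, again with no overlap (log2 fold change -3.62 ± 0.44, adjusted p = 0.000306). On mm10 the Nppb gene spans positions 147985788 to 147987205 of chromosome 4, and the Sst gene positions 23889573 to 23890958 of chromosome 16.

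The receptors of the same neurons were lower by less. Of 10 genes listed for the NP3 class, 8 fell and none rose (80% called), and the list's median log2 fold change was -0.98. Cysltr2, a leukotriene receptor through which immune mediators act on these cells, was at 130, 85.9 and 100 in control and 26.4, 47.5 and 29.2 in stress (-1.62 ± 0.27, adjusted p = 0.00204). Htr1f, a serotonin receptor, was at 56.2, 71.0 and 63.2 against 18, 27.2 and 31.2 (-1.31 ± 0.28, adjusted p = 0.00971). Neither gene overlapped between the groups. Osmr, the oncostatin M receptor that pairs with Il31ra to sense interleukin 31, was at 519, 547 and 622 in control and at 344, 343 and 335 in stress (-0.72 ± 0.09, adjusted p = 0.000543). Its partner Il31ra was at 55.2, 41.8 and 89.7 against 17.4, 29.3 and 38.8, a log2 difference of -1.10 ± 0.35 that did not pass the test (adjusted p = 0.0585). The peptide Nts (-0.86), the cytokine receptor Il4ra (-0.31) and the kinase Jak1 (-0.22) also fell, and S1pr1, a receptor for sphingosine 1-phosphate, was at -0.09 (adjusted p = 0.623). Fewer cells of a type and less RNA per cell cannot be told apart in RNA of whole ganglia. Without control replicate 2 the number of these genes that fell was 4, since Htr1f (adjusted p = 0.0565), Nts (0.138), Il4ra (0.134) and Jak1 (0.0970) lost their call.

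The promoter of Sst is known for a cyclic AMP response element, a short palindrome through which cyclic AMP drives transcription, and it is shown because Sst is among the genes that fell most. The palindrome TGACGTCA was searched on both strands in the 250 bases before each gene's start in RefSeq (GRCm38.p6), and 2 of the 9 NP3 genes with a promoter in the table held it, against 2.96% of the tested genes with a promoter. The stretch of Sst lies at chr16:23890875-23890902 and that of Jak1 at chr4:101265307-101265334, both on the minus strand, and capitals mark the palindrome.
Sst: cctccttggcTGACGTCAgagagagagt
Jak1: gagcagcttcTGACGTCAcgggggctgg
The match in Sst begins 48 bases before the start and that in Jak1 101 bases before it. These starts are RefSeq's, and the GENCODE span of Sst begins further upstream, so the stretch lies within that span. Sst and Jak1 had log2 fold changes of -3.62 and -0.22.

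Other nociceptor genes moved in both directions. Of 18 non-peptidergic nociceptor genes, 8 fell and 3 rose (61.1% called, median log2 fold change -0.21). Trpa1, the channel opened by irritants such as mustard oil, was at 964, 1002 and 1004 normalized counts in control and 333, 481 and 372 in stress (-1.34 ± 0.11, adjusted p = 2.89e-05). The lysophosphatidic acid receptor Lpar3 was at 686, 772 and 644 against 306, 373 and 385 (-0.98 ± 0.11, adjusted p = 0.000155). All stress libraries were below all control libraries for both genes. Smaller falls were seen in the sodium channel Scn11a (-0.41) and the semaphorin receptor Plxnc1 (-0.29). Mrgprx1, a receptor for peptides that cause itch, went the other way, from 1264, 1326 and 1385 to 2185, 1675 and 2288 (0.62 ± 0.10, adjusted p = 0.00169). Mrgprd, the receptor that marks the most common non-peptidergic class, was at -0.09 ± 0.06 (adjusted p = 0.362), and P2rx3, the ATP-gated channel of the same class, at 0.14 ± 0.07 (adjusted p = 0.184). With 1 prior variance for all genes Scn11a (adjusted p = 0.0976), Plxnc1 (0.0906) and Mrgprx1 (0.0652) lost their call. Without 1 library the counts ranged from 5 to 9 lower and from 1 to 4 higher.

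Among peptidergic nociceptor genes both calcitonin gene-related peptide genes fell. Calca was at 16849, 17708 and 16906 in control and at 12217, 12595 and 13082 in stress (-0.44 ± 0.05, adjusted p = 0.000255). Calcb was at 1222, 1305 and 1211 against 796, 758 and 729 (-0.71 ± 0.07, adjusted p = 7.71e-05). The heat and capsaicin channel Trpv1 fell by 0.33, and Gfra3, the receptor for artemin, rose by 0.29. The other 12 of 16 genes were not called (25% were). Tac1, which encodes substance P, was among those 12, at -0.02 ± 0.06 (adjusted p = 0.890). All stress libraries were below all control libraries for Calca and Calcb, and the groups overlapped for Tac1. With 1 prior variance Trpv1 (adjusted p = 0.0590) and Gfra3 (0.0588) lost their call.

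**Figure D2:**
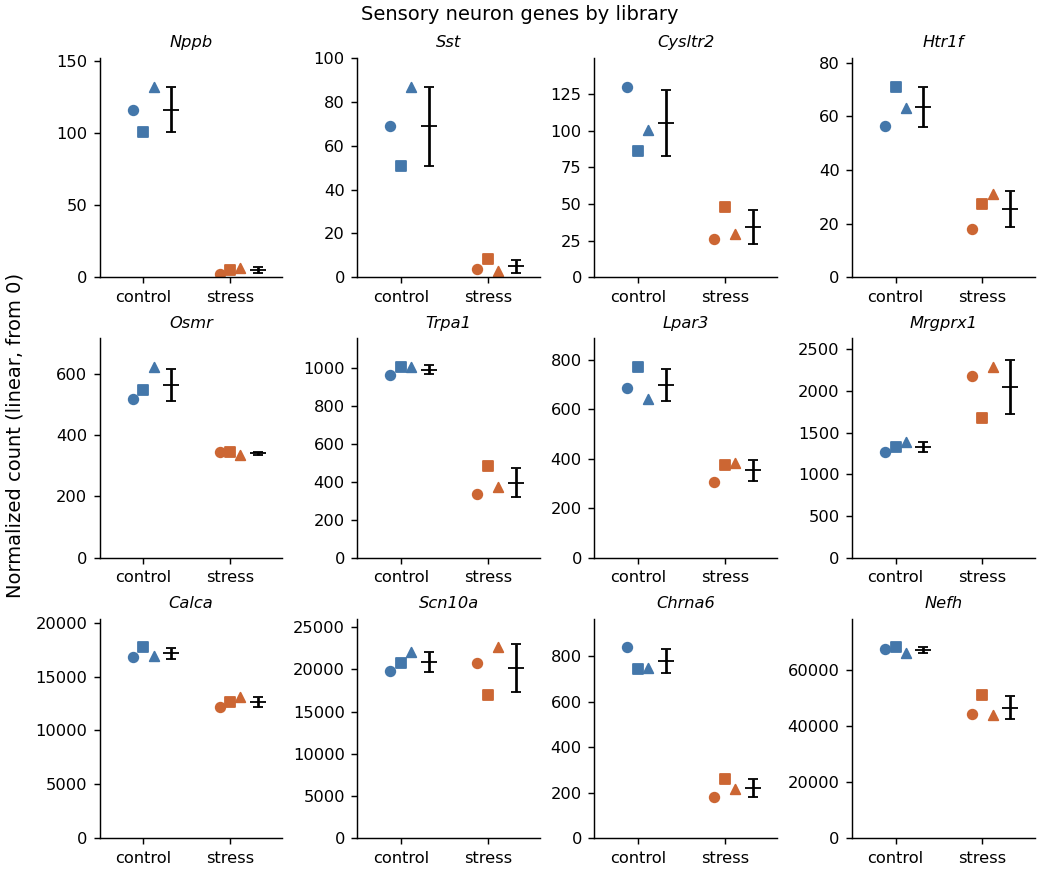
Normalized counts (linear axes from 0) of 12 sensory neuron genes in the 3 control (blue) and 3 stress (orange) libraries, with circle, square and triangle for replicates 1, 2 and 3, and bars for the mean and SD. Nppb in stress lies between 2.42 and 6.56, all below the control libraries, whereas the Scn10a values of the groups overlap.

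All 3 neurofilament chain genes, typical of large A-fibre neurons, fell. Of 25 A-fibre mechanoreceptor and proprioceptor genes, 10 fell and 1 rose (44% called, median log2 fold change -0.15). When 1 library was left out, 7 to 10 were lower. Neurofilament heavy chain Nefh, a structural protein of wide axons, was at 67389, 68075 and 66080 in control and at 44230, 51194 and 43984 in stress (-0.54 ± 0.07, adjusted p = 0.000359). The medium and light chains Nefm and Nefl fell by 0.44 and 0.41. Their stress values, 131480, 136299 and 135852 for Nefm and 124124, 135488 and 133383 for Nefl, were all below the lowest controls of 180234 and 172103. Calb2 (calretinin), a calcium buffer of fast mechanoreceptors, was at 347, 307 and 361 against 90.3, 138 and 101 (-1.64 ± 0.16, adjusted p = 7.25e-05). Spp1 (osteopontin), found in large proprioceptive neurons, fell from 727, 569 and 691 to 297, 384 and 315 (-1.0 ± 0.12, adjusted p = 0.000298). The proprioceptor marker Pvalb was at 0.21 (adjusted p = 0.0787).

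Potassium channels set how fast a neuron recovers between impulses. Of 58 potassium channel genes, 19 fell and 5 rose (41.4% called, and 9 to 20 lower and 1 to 4 higher without 1 library). Kcnc1, a fast delayed rectifier, was at 1559, 1534 and 1569 in control and 1046, 1102 and 1214 in stress (-0.47 ± 0.07, adjusted p = 0.00104). Kcnmb1, an accessory subunit of the calcium-activated BK channel, was at 256, 284 and 388 against 133, 129 and 128 (-1.22 ± 0.15, adjusted p = 0.000397). The pacemaker channel Hcn2 fell by 0.34 (adjusted p = 0.00170). Among 14 sodium channel genes 3 rose and 3 fell (42.9% called). Scn3a, the sodium channel of embryonic neurons, rose in every stress library, from 225, 298 and 214 to 470, 474 and 541 (1.02 ± 0.13, adjusted p = 0.000401). The nociceptor channel Scn10a was at 20824, 17019 and 22613 in stress and 19822, 20757 and 22101 in control, with overlap (-0.06 ± 0.09, adjusted p = 0.694). The lowest control for Kcnc1 and Kcnmb1 was above the highest stress library.

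Transduction channels and transmitter receptors held some of the largest falls. Of 28 TRP, Piezo, ASIC and P2X channel genes 9 fell and 1 rose (35.7% called). The ATP-gated subunit P2rx6 was at 312, 324 and 302 against 155, 147 and 137 (-1.09 ± 0.12, adjusted p = 0.000148), and Trpm2, a channel opened by oxidative stress, fell by 0.56 (adjusted p = 0.00169). The touch channel Piezo2 was called higher (0.41, adjusted p = 0.0214) on values of 19971, 16096 and 23278 in stress, and lost the call without stress replicate 3 (0.0516), stress replicate 1 (0.0658), control replicate 1 (0.120) or control replicate 2 (0.0780). The count of 9 fell to as few as 5 without 1 library. Among receptors the nicotinic subunits stood out. Chrna6 was at 839, 745 and 750 in control and at 181, 262 and 215 in stress (-1.84 ± 0.12, adjusted p = 5.23e-06). Its partner Chrnb3, the neighbouring gene on chromosome 8, was at 281, 242 and 237 against 80.2, 85.6 and 77.2 (-1.63 ± 0.14, adjusted p = 3.37e-05). Chrnb4 fell by 1.24, whereas Chrna4 rose by 0.71 (adjusted p = 0.00176), and neither gene overlapped between the groups. In all, 4 of 31 receptor subunit genes rose and 5 fell (29% called). Htr2c, a serotonin receptor, was among the largest rises, from 51.1, 50.1 and 46.9 to 162, 143 and 141 (1.57 ± 0.18, adjusted p = 0.000184), and so was the glutamate receptor Grm3 (1.33 ± 0.25, adjusted p = 0.00446).

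Of 20 pan-neuronal genes 5 fell and 2 rose (35% called, against 12% of all genes tested), and the median log2 fold change was -0.04. Snap25 and Syn1, proteins of transmitter release, fell by 0.35 and 0.33, the surface protein Thy1 by 0.36 and neuronal tubulin Tubb3 by 0.31. All 4 lost their call with 1 prior variance, at adjusted p of 0.0833, 0.0755, 0.0673 and 0.0526. Of 9 genes of C-fibre touch neurons 1 rose (Piezo2) and 1 fell (Th), which is 22.2% called. Of 5 cold neuron genes only the adhesion gene Cdh8 was called (20%), higher by 0.45 (adjusted p = 0.00235). Th, which makes dopamine, lost its call without any 1 library except control replicate 2 (adjusted p from 0.0533 to 0.149).

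Among genes of growing neurons more members rose than fell. Of 22 growing axon and immature neuron genes 9 rose and 1 fell (45.5% called, and 6 to 11 higher without 1 library). Their median log2 fold change was 0.17. Doublecortin (Dcx), a microtubule protein of young neurons, was at 420, 367 and 422 in control and 750, 642 and 866 in stress (0.89 ± 0.11, adjusted p = 0.000358). Marcksl1, an actin regulator, was at 2159, 2070 and 1916 against 4028, 3393 and 3402 (0.81 ± 0.07, adjusted p = 4.00e-05). Both genes were higher in every stress than in every control library. Crmp1, which transmits semaphorin signals to the cytoskeleton, rose by 0.36 (adjusted p = 0.000734), and the repulsive guidance cue Draxin rose from 175, 169 and 156 to 419, 239 and 315 (0.92 ± 0.17, adjusted p = 0.00429). Draxin lost its call with 1 prior variance (adjusted p = 0.0709).

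In a list of imprinted genes, expressed from the chromosome of 1 parent, and other fetal growth genes, more members rose than fell. Of 25 imprinted and fetal growth genes 8 rose and 3 fell (44% called, and 5 to 10 higher without 1 library). Magel2, a ubiquitin ligase regulator of the Prader-Willi region, was at 17.5, 20.6 and 11.6 in control and 90.8, 47.0 and 77.2 in stress (2.04 ± 0.33, adjusted p = 0.00202). Its neighbour Ndn (necdin), which helps neurons leave the cell cycle, rose by 0.34 (adjusted p = 0.00158). The long RNA H19, which limits fetal growth, was at 5262, 4795 and 5938 against 8257, 9352 and 8343 (0.70 ± 0.08, adjusted p = 0.000145). Igf2, the growth factor beside H19, was at 6964, 5261 and 5898 against 6431, 7283 and 7234, with overlap (0.22 ± 0.09, adjusted p = 0.127).

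Some genes of dividing cells were higher and none was called lower. Of 30 mitosis genes 8 rose (3 to 8 without 1 library), and of 30 DNA replication genes 8 rose (2 to 11). In each list 26.7% were called. Top2a, a topoisomerase of dividing cells, was at 579, 529 and 712 in control and 1025, 936 and 767 in stress (0.58 ± 0.12, adjusted p = 0.00748). The mitotic spindle gene Prc1 rose by 0.51 (adjusted p = 0.00426) and the nucleotide enzyme subunit Rrm1 by 0.47 (adjusted p = 0.00430). The mean rise of the mitosis list was 0.48, 0.40 and 0.25 on the log2 scale in stress replicates 1, 2 and 3. That order is also the order of the red blood cell list in the same libraries (1.21, 0.35 and -0.21). With the red blood cell level as a covariate 2 mitosis and 1 replication gene were called. Calls over all genes went from 1782 to 893 with that covariate, so the drop is not particular to these lists. The part of red blood cells in these rises was not tested. With 1 prior variance Top2a (adjusted p = 0.0988) and Rrm1 (0.0549) lost their call, and Top2a also with the covariate (0.0510).

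In cell death and injury lists a few genes carried the change. Hrk (harakiri), a BH3-only activator of neuronal death after loss of trophic support, was at 52.6, 52.6 and 54.3 in control and at 185, 164 and 186 in stress (1.72 ± 0.16, adjusted p = 6.21e-05). Within each group its values were close together and the groups lay far apart. Bid, another BH3-only gene, fell by 0.53 (adjusted p = 0.00175), and of 13 BCL2-family genes 2 rose and 2 fell (30.8% called). Of 19 nerve injury and regeneration genes 5 rose and 2 fell (36.8% called, and 2 to 5 higher without 1 library). Reg3b, a secreted lectin made by injured sensory neurons, was listed at 0, 2.16 and 0 in control and was at 28.6, 17.0 and 16.9 in stress, and its call was lost without stress replicate 1 (adjusted p = 0.0543). Of 19 neurotrophic genes 2 rose and 3 fell (26.3% called), and the growth factor neurotrophin 3 (Ntf3) rose by 0.66 (adjusted p = 0.00638).

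Satellite glia markers fell more often than they rose. Of 22 satellite glia genes 7 fell and 2 rose (40.9% called, and 4 to 9 lower without 1 library). The median log2 fold change was -0.17. Averaged over the list the difference was -0.20 in each of the 3 stress libraries. The lipid carrier Apoe was at 39706, 42063 and 36020 in control and at 21087, 20854 and 23278 in stress (-0.85 ± 0.07, adjusted p = 2.26e-05). Endothelin receptor B (Ednrb) was at 4561, 5035 and 4612 against 2648, 2639 and 2962 (-0.78 ± 0.06, adjusted p = 2.56e-05). Neither overlapped. The matrix gene Fbln2 fell by 0.50 and Sparcl1 by 0.39. Of 19 myelin genes 3 fell (15.8% called, against 12% of all genes tested), with 1 to 7 lower without 1 library. Among them was the lipid-binding protein Pmp2 (-0.60, adjusted p = 0.00161, and 0.0668 with 1 prior variance). The mean difference of the myelin list was 0.13, 0.04 and -0.17 in control replicates 1, 2 and 3. In stress it was -0.15, -0.20 and -0.18, so control replicate 3 lay within the range of the stress libraries.

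In the matrix, fibroblast and cartilage lists, which share members such as Lum and Col2a1, more members fell than rose. Of 34 collagen and matrix genes 15 fell and 1 rose (47.1% called, and 11 to 18 lower without 1 library). Of 18 fibroblast genes 8 fell and none rose (44.4% called, and 7 to 8 lower). Of 19 cartilage and bone genes 9 fell and 1 rose (52.6% called, and 7 to 9 lower). Lumican (Lum), a small proteoglycan that orders collagen fibrils, was at 1755, 1940 and 1764 in control and 652, 713 and 528 in stress (-1.54 ± 0.10, adjusted p = 4.59e-06). The cartilage collagen Col2a1 was at 819, 835 and 961 against 276, 335 and 305 (-1.51 ± 0.10, adjusted p = 4.59e-06). These 2 genes were among the 4 of lowest adjusted p with no predicted name. Decorin (Dcn) fell by 0.51, Prelp by 0.60 and the basement membrane collagen Col15a1 by 0.58, and Col1a1, the main collagen of connective tissue, from 32430, 31218 and 32098 to 23323, 23979 and 18722 (-0.54 ± 0.08, adjusted p = 0.00109). The cartilage genes Chad (-1.45), Col11a2 (-1.09), Comp (-0.89) and Col9a2 (-0.75) fell with Col2a1. Tenascin C (Tnc), a matrix protein of growing tissue, rose from 542, 501 and 576 to 1162, 751 and 1138 (0.89 ± 0.14, adjusted p = 0.00141). The summed cartilage list was at 7105 to 7361 in control and 5132 to 5282 in stress, and whether cartilage beside the ganglion was taken with it was not tested. With 1 prior variance Col1a1 (adjusted p = 0.0571) and Tnc (0.0618) lost their call.

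**Figure D3:**
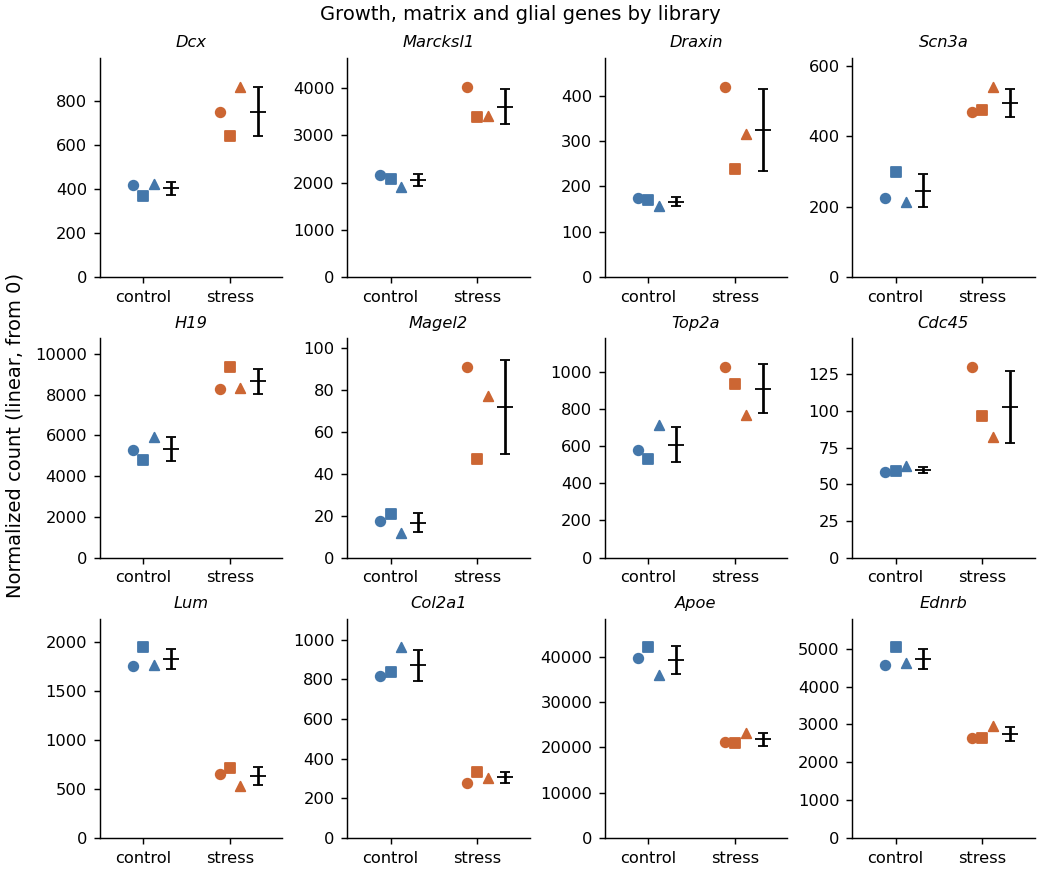
Normalized counts (linear axes from 0) of 12 growth, matrix and glial genes in control (blue) and stress (orange) libraries, with circle, square and triangle for replicates 1, 2 and 3, and bars for the mean and SD. Dcx and H19 are higher and Lum, Col2a1, Apoe and Ednrb lower in every stress library than in every control library.

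Of 16 endothelial genes 1 rose and 3 fell (25% called). Of 13 pericyte genes 3 fell (23.1% called, and 0 to 5 without 1 library), where 12% of all genes tested were called. Von Willebrand factor (Vwf), the clotting protein of endothelium, rose from 351, 261 and 346 to 566, 821 and 597 (1.04 ± 0.15, adjusted p = 0.000814). Of 20 macrophage genes 3 rose and none fell (15% called, and 2 to 4 higher without 1 library). Their mean difference on the log2 scale was 0.03, 0.12 and 0.39 in stress replicates 1, 2 and 3. Lyve1, a hyaluronan receptor of lymphatic endothelium and perivascular macrophages, was at 107, 102 and 133 in control and 207, 220 and 189 in stress (0.85 ± 0.15, adjusted p = 0.00334). The protease cathepsin S (Ctss) rose by 0.60 (adjusted p = 0.00274), whereas the macrophage growth factor receptor Csf1r overlapped (-0.11, adjusted p = 0.489).

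The genes that present antigen on MHC class II molecules were among the largest falls. Of 8 tested, 6 fell and none rose (75% called, and 5 to 6 lower without 1 library), with a median log2 fold change of -1.11. H2-Aa, the alpha chain of the I-A molecule, was at 199, 237 and 185 in control and at 55.4, 59.5 and 35.1 in stress (-2.05 ± 0.21, adjusted p = 0.000103). Cd74, the invariant chain that guides class II molecules through the cell, was at 490, 564 and 482 against 159, 176 and 84.6 (-1.93 ± 0.21, adjusted p = 0.000165). H2-Eb1 fell by 1.54, and none of these 3 genes overlapped. H2-Ab1 fell by 1.26 and H2-DMb1 by 0.96, and both lost their call with 1 prior variance (adjusted p = 0.0604 and 0.0581). Ciita, the factor that switches class II genes on, was low in all libraries, at 9.50, 13.1 and 15.0 against 22.8, 7.56 and 8.15 (adjusted p = 0.916). None of the 20 macrophage genes was called lower, and B2m, the shared chain of class I molecules, was at 0.03 ± 0.10 (adjusted p = 0.890).

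The 3 stress libraries did not vary alike. On the first principal component (36.0% of the variance) the controls were at -23.8, -21.1 and -19.0 and stress replicates 1, 2 and 3 at 31.7, 14.1 and 18.1. Over 11913 genes with a mean of at least 100 normalized counts, the median SD on the log2 scale was 0.103 among stress and 0.0797 among control libraries. A range of more than 1 log2 unit was seen for 80 genes in stress and 48 in control. In 29 of the 80 it was stress replicate 1 that stood apart, in 27 replicate 2 and in 24 replicate 3. For replicate 2 the library was the low one in 23 of its 27 genes, for replicates 1 and 3 the high one in 17 and 14.

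Interferon-stimulated genes differed widely between the stress libraries, though skeletal muscle genes spanned a wider range (mean differences of -0.48, 0.53 and 1.31), and also varied in control. Interferon-stimulated genes encode antiviral proteins and are switched on together by interferons. Over 37 genes the mean log2 difference from the control mean was 1.73 in stress replicate 1, 0.21 in replicate 2 and 0.66 in replicate 3, against -0.03 to 0.01 in the controls. Stress replicate 1 was the highest of the 6 libraries for 35 of the 37 genes and replicate 3 for the other 2. The summed list was at 9366 to 9693 in control and at 20375, 9576 and 11943 in stress. Gbp2, a guanylate-binding protein, was at 106, 128 and 115 in control and at 1061, 154 and 151 in stress. Replicate 1 alone was far from the controls, and the gene did not pass the test (adjusted p = 0.124). Isg15, a ubiquitin-like modifier, was at 36.2, 31.7 and 26.1 against 202, 40.0 and 115, high in replicates 1 and 3 (1.62 ± 0.43, adjusted p = 0.0282).

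Of the 37 interferon genes 5 were called, all higher: Iigp1, Ifi47, Isg15, Tap1 and Rsad2. That was 13.5%, against 12% of all genes tested. Iigp1, an immunity-related GTPase, was at 27.5, 35.4 and 59.3 in control and 555, 85.2 and 139 in stress (2.25 ± 0.51, adjusted p = 0.0123). The number of calls changed with single libraries. Without control replicates 1, 2 or 3 the number called was 1, 0 and 1, without stress replicate 1 it was 2, without replicate 3 it was 7, and without replicate 2 it was 25. None was called once the red blood cell level was a covariate. All 5 lost their call with 1 prior variance (adjusted p from 0.136 for Iigp1 to 0.204 for Ifi47), and Iigp1 also with a robust prior variance (0.197). The red blood cell list was also highest in stress replicate 1, for 12 of its 20 genes. Gene pairs with near-identical copies in this list, such as Tgtp1 and Tgtp2 and the Gbp genes, can share reads, and their separate values are uncertain.

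The promoters of these genes are shown because the list moved together in 1 library. The core of the interferon-stimulated response element, which is GAAA, any 2 bases and GAAA again, was searched on both strands in the 250 bases before the RefSeq start (GRCm38.p6). It was found in 18 of the 29 interferon genes with a promoter in the table (62.1%), against 3.01% of the tested genes with one. The list was made of genes that interferons switch on, so this share describes the list rather than these libraries. The 6 stretches are from the list members with a match that rose most in stress replicate 1 over the control mean. They were picked by that log2 difference, so their range of 2.62 to 4.40 describes the choice. Promoters on the chromosome of Iigp1 were left out of the choice. Iigp1, which also differed widely in that library, is therefore not shown. Capitals mark the letters that a match covers. Isg15 has 3 overlapping matches, the first of which begins just before the stretch.
Tgtp1: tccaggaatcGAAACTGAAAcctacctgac
Tgtp2: tccaggaatcGAAACCGAAAcctactctga
Gbp2: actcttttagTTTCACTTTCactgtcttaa
Irgm2: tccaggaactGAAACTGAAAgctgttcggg
Isg15: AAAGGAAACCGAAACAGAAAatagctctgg
Gbp5: acttgtgtagTTTCAATTTCagtttagaga
They lie at chr11:48992304-48992333 (Tgtp1, minus strand), chr11:49064263-49064292 (Tgtp2, minus), chr3:142620594-142620623 (Gbp2, plus), chr11:58214903-58214932 (Irgm2, plus), chr4:156200865-156200894 (Isg15, minus) and chr3:142496759-142496788 (Gbp5, plus). In Gbp2 and Gbp5 the element is read from the opposite strand. The GENCODE spans of Tgtp1, Irgm2, Gbp5 and, in part, Gbp2 reach over their stretches, since the starts of the annotations differ.

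**Figure D4:**
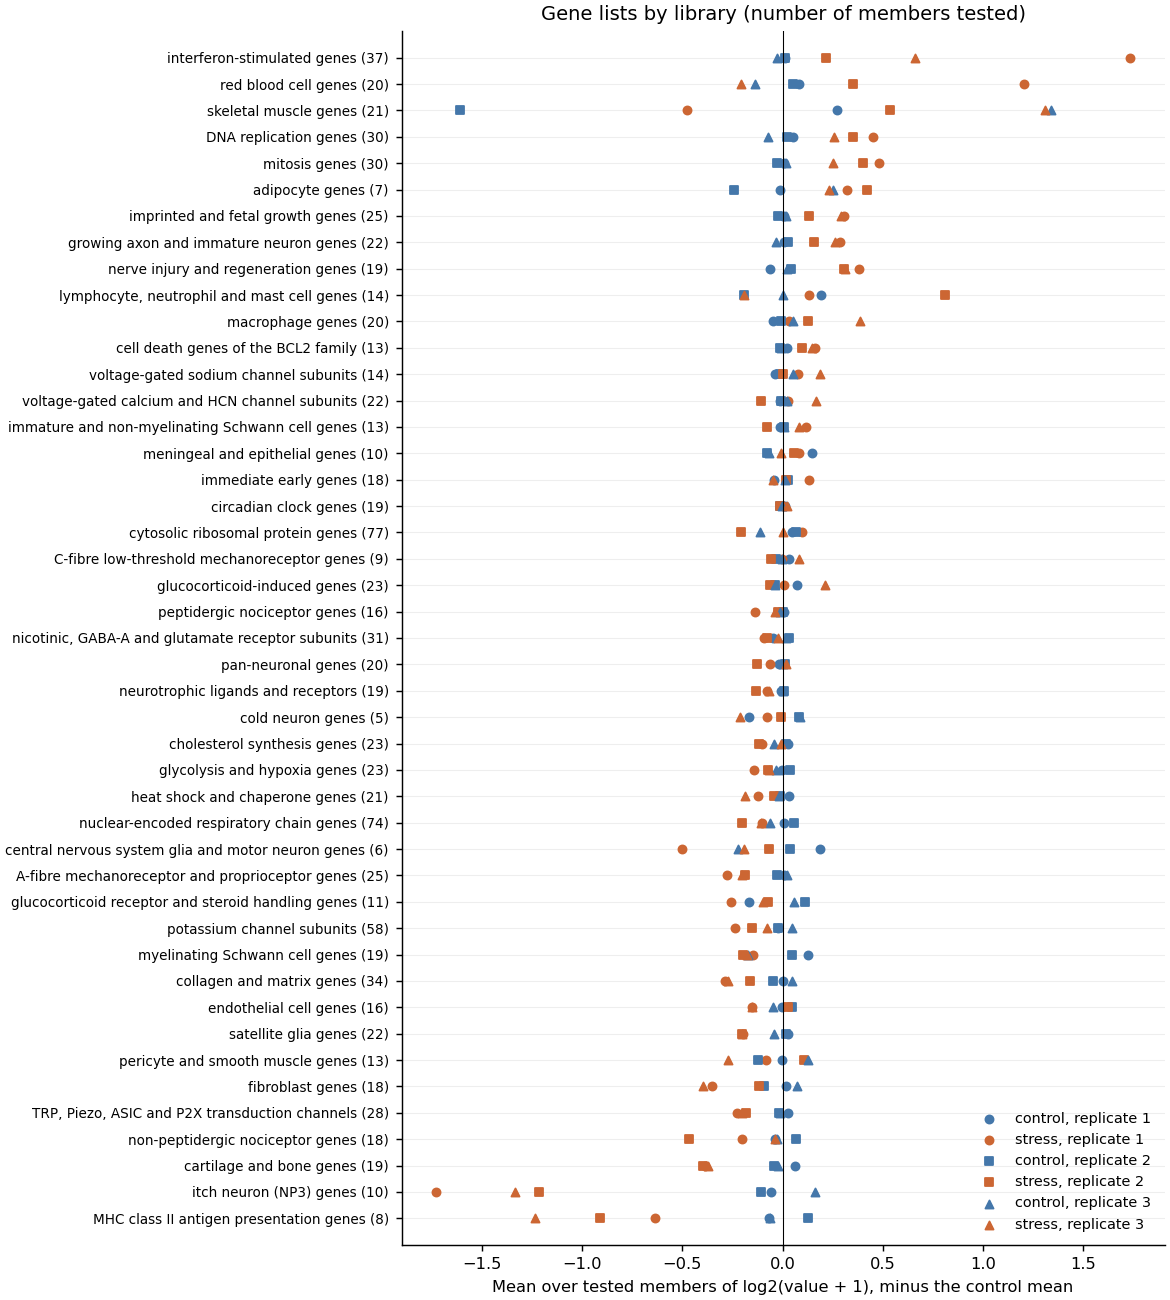
Mean over the tested members of each gene list of log2(value + 1), as a difference from the control mean (horizontal axis), for the 6 libraries. Control libraries are blue and stress libraries orange, with circle, square and triangle for replicates 1, 2 and 3. Stress replicate 1 stands apart for interferon-stimulated genes at 1.73, whereas the itch neuron list is low in all 3 stress libraries (-1.73, -1.22 and -1.34).

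Red blood cell genes also differed between the stress libraries. The mean difference of the 20 genes was 1.21, 0.35 and -0.21 in stress replicates 1, 2 and 3. The mean of replicate 3 includes Hbb-bs, listed at 0 there, and the median over the 20 genes was 0.006 in that library. Of the 20, 3 rose and 1 fell (20% called, and 3 to 7 higher without 1 library). The anion exchanger Slc4a1 of the red cell membrane was at 36.4, 18.3 and 44.0 in control and 393, 142 and 65.6 in stress (2.29 ± 0.49, adjusted p = 0.0102). It lost its call without control replicate 2 (0.0523), with 1 prior variance (0.123) and with a robust prior variance (0.169). Alas2, the first enzyme of heme synthesis in red cells, rose by 1.31 (adjusted p = 0.00744, and 0.0953 with 1 prior variance). The globin gene Hbb-bt was at 328, 349 and 260 in control and 1018, 894 and 497 in stress, with no overlap (1.31 ± 0.21, adjusted p = 0.00161). The adult globin gene Hbb-bs was listed at 0 in stress replicates 2 and 3 and at 96.7 in replicate 1. Reads of the near-identical globin copies can be split, so the levels of Hbb-bs and Hbb-bt are uncertain. Lymphocyte, neutrophil and mast cell genes stood higher in stress replicate 2 (mean 0.81) than in replicates 1 and 3 (0.13 and -0.19). Of these 14 genes 1 was called (7.14%).

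**Figure D5:**
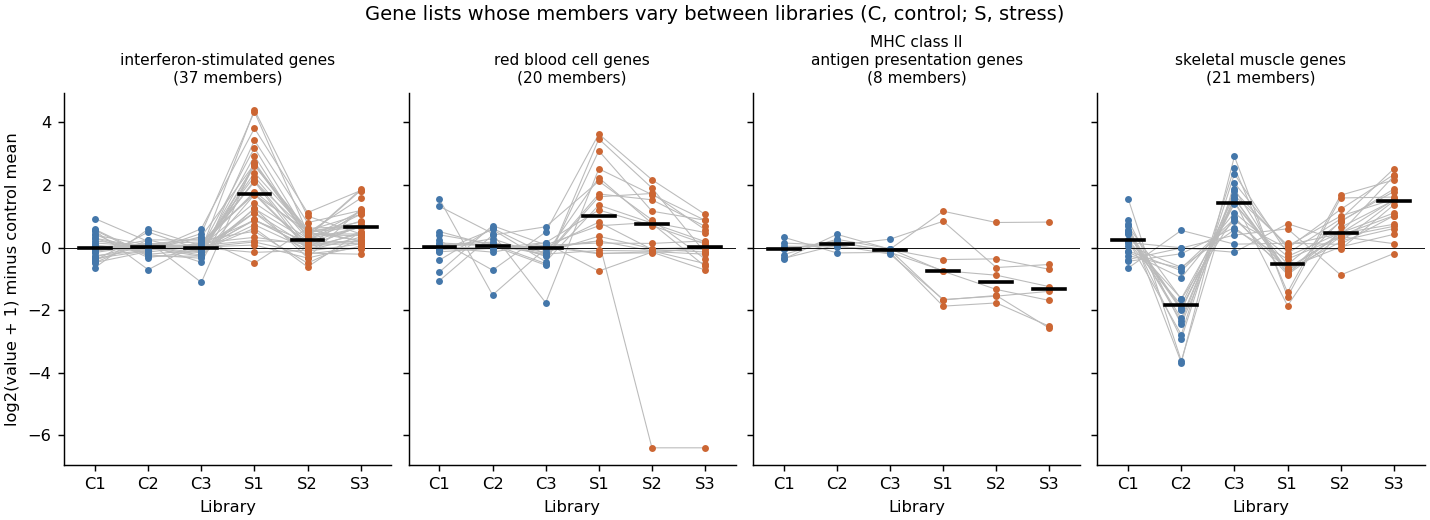
Log2(value + 1) of each tested member, as a difference from its control mean, in 4 gene lists by library (C, control; S, stress; grey lines join 1 gene). Black bars are medians over members. Interferon-stimulated genes peak in stress replicate 1, MHC class II genes are low in all 3 stress libraries, and skeletal muscle genes vary in both groups.

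Of 23 genes that glucocorticoids, the adrenal stress hormones, induce, 3 rose and 2 fell (21.7% called, against 12% of all genes tested). Fkbp5, a chaperone that glucocorticoids induce and that restrains their receptor, was at 822, 792 and 885 in control and 1011, 1255 and 1127 in stress, with no overlap (0.44 ± 0.09, adjusted p = 0.00556). Tsc22d3 (GILZ) and Sgk1, other induced genes, overlapped between the groups (-0.11 and 0.13, adjusted p = 0.413 and 0.459). Klf9 and Ddit4, which glucocorticoids also induce, fell by 0.37 and 0.41 (adjusted p = 0.00744 and 0.00374). The glucocorticoid receptor Nr3c1 was at 1339, 1422 and 1459 against 1134, 1241 and 1250 (-0.22 ± 0.07, adjusted p = 0.0513), which did not pass the test. The mineralocorticoid receptor Nr3c2, which binds the same hormones with higher affinity, fell from 248, 293 and 294 to 124, 129 and 201 (-0.91 ± 0.17, adjusted p = 0.00508). With 1 prior variance Fkbp5 (adjusted p = 0.0725), Klf9 (0.0860), Ddit4 (0.0571) and Nr3c2 (0.0709) lost their call.

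Among energy and housekeeping genes the changes were small and mostly downward. Of 23 glycolysis and hypoxia genes 7 fell and 2 rose (39.1% called, and 5 to 10 lower without 1 library). The glycolytic enzymes Pkm, Aldoa and Gapdh fell by 0.40, 0.38 and 0.35, and Aldoa was at 38855, 40290 and 36759 in control against 29776, 28491 and 31037 in stress (adjusted p = 0.00141). Of 74 nuclear-encoded respiratory chain genes 10 fell and none rose (13.5% called, close to the 12% of all genes tested). The number that fell was 1 to 18 when 1 library was left out. Of 77 cytosolic ribosomal protein genes none was called, and at most 2 in a direction when 1 library was left out. Of 23 cholesterol synthesis genes 6 fell and 1 rose (30.4% called, and 1 to 6 lower without 1 library). Of 21 heat shock and chaperone genes 5 fell and 1 rose (28.6% called, and 2 to 8 lower). The co-chaperone Bag3 fell from 5539, 5584 and 4950 to 3843, 3829 and 3597 (-0.51 ± 0.06, adjusted p = 0.000271). With 1 prior variance Pkm (adjusted p = 0.0505) and Gapdh (0.0578) lost their call.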

How the data were processed

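The deposited table gave, for 15322 genes and each library, a normalized count (a signal per gene that the authors scaled between the 12 libraries in the manner of DESeq2, per the file headers and the values). Per the submitters' processing notes, which give no roles or versions, STAR, Salmon, DESeq2 and mm10 were used. In the sources used here the annotation and strand setting are not given. The authors' deposited log2 fold changes, scores (errors and test statistics) and p-values over all 12 libraries were not used, nor were 6 other sample columns. Groups and replicate numbers came from the sample titles. Values were not whole numbers, and low values near a multiple of 1 read's worth made up 27.6% to 86.1% of a library (within 0.1 of a step, up to 12), so reads were not recovered and no count model was fitted. Depth was estimated from that step, except in stress replicate 2, where it was hardly seen.

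Genes with a value of at least 10 in at least 3 of the 6 libraries were kept (14844 tested, 478 not). Log2(value + 1) was fitted with limma 3.58.1 in R 4.3.3 on these 6 libraries alone, with a mean per group, no block and a prior variance that follows mean expression. Tests are 2-sided with Benjamini-Hochberg adjustment over all genes tested, and a gene is called at an adjusted p under 0.05. Fold changes on this scale understate the change of low genes. The steps were tested on simulated data. There were 45 gene lists, whose members were counted without a set test, and the members and lists were chosen with earlier results of these data known. Some genes are in several lists and are counted in each. Named genes were the 12 largest rises and falls with a mean of at least 50 and no overlap or predicted name, up to 4 called members of each list, the 12 most variable genes of each group with a mean of at least 100, and 4 of lowest adjusted p. Nppb, Sst, Trpa1, Nr3c1, Fkbp5, Tsc22d3, Sgk1, Calca, Scn10a, Xist and Ddx3y were always included, and further list members were picked after their values were seen. Some genes of the rule and the lists are not reported here. Gene coordinates come from GENCODE M21 (mm10), and promoters are from RefSeq (GRCm38.p6). Same-numbered libraries of the 2 groups did not deviate together (correlations of 0.01, -0.02 and 0.01), so the numbers do not pair them. Alternatives covered the pseudocount, filter, scaling, prior variance, library weights, a replicate block, a red blood cell covariate, a fold threshold and leaving out each library.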

Additional observations from a re-analysis of the deposited data

How the results depend on the processing

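None of the 245 called genes in the naming rule or the lists changed sign under an alternative. The 1782 calls (765 higher, 1017 lower) became 462 (204 and 258) with 1 prior variance for all genes, 893 (383 and 510) with the red blood cell level as a covariate and 356 (203 and 153) past a 1.5-fold change. Leaving out each library in turn gave 778 to 2246 calls, 321 to 1036 higher and 457 to 1210 lower, with the fewest without control replicate 1 and the most without stress replicate 2. The causes were not tested, beyond the fewer samples of a fit without 1 library. Other scalings, filters and pseudocounts, a robust prior variance and sample weights left 1761 to 2459 calls. With the replicate number as a block 1637 genes were called, but the numbers do not pair the libraries (correlations of same-numbered libraries 0.01, -0.02 and 0.01). Of the 245, 71 kept their call under every alternative, 124 lost it without 1 library, 105 with the covariate and 168 under another alternative. Counts of called list members moved past 1.5 times in 306 of 1530 cases. Depth limits low genes, and that of stress replicate 2 is unknown. In that library 27.6% of low values lay near a multiple of the step worth 1 read, against 61.5% to 86.1% in the other 5, and whether it was processed differently was not tested.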

Other observations

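Some of the largest changes lay outside the lists. Adam8, a membrane protease of immune cells and injured neurons, was at 94.3, 64.8 and 84.8 normalized counts in control and 25.1, 25.1 and 22.5 in stress (log2 fold change -1.69 ± 0.25, limma adjusted p = 0.00116). Cryba2, a crystallin of the eye lens, was at 100, 73.6 and 95.4 against 24.5, 41.6 and 23.6 (-1.59 ± 0.27, adjusted p = 0.00254). Ipcef1, which acts with regulators of the small GTPase Arf6, rose from 29.3, 23.2 and 28.9 to 93.5, 87.6 and 87.3 (1.69 ± 0.23, adjusted p = 0.000675). The zinc finger gene Bnc1 (1.52, adjusted p = 0.00116) and the matrix protein Coch (1.32, adjusted p = 0.00318) also rose. Cidea, a lipid droplet protein, rose by 1.31 (adjusted p = 0.00162), and of the 7 adipocyte genes tested 1 rose and 1 fell (28.6% called). No group overlapped for these 6 genes, and Bnc1 lost its call with 1 prior variance (adjusted p = 0.0564).

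Of 19 circadian clock genes 4 fell and none rose (21.1% called). The repressor Bhlhe40 was at 459, 490 and 542 in control and 305, 360 and 377 in stress (-0.52, adjusted p = 0.00785, and 0.0633 with 1 prior variance). Of 18 immediate early genes, which follow neuronal activity, 1 fell (5.56% called). In both lists the mean of the 3 stress libraries lay between -0.05 and 0.13 on the log2 scale. A total of 13 genes with a mean of at least 100 normalized counts switched between more than 100 and 0 among libraries of 1 group, such as Cers1 at 955, 867 and 0 in control and Amd1 at 280, 172 and 0 in stress. Several have overlapping neighbours or near-identical copies, among which reads can be split, and these values are listed at 0 rather than shown to be absent. The predicted zinc finger gene Gm14440 was listed at 0 in all 3 control libraries and was at 487, 137 and 410 in stress.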
